A study of Mus musculus with 6 samples.

Results

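The ATF4 amino acid response genes are the genes that the transcription factor ATF4 is known to drive when a cell runs short of amino acids, together with *Atf4* itself. The list held 42 genes, taken by name from what is known of the pathway. Of these, 40 had a probe set paired with exactly 1 gene symbol, out of 19937 genes on the array with such a probe set, and the probe set with the highest mean was taken for each gene. *Pycr1*, a proline synthesis enzyme, had no probe set with its symbol, and the probe set of *Aars*, the alanyl-tRNA synthetase, carried several symbols, so that neither gene has a value here.

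The levels were measured in plasmacytoid dendritic cells (pDCs), the interferon-producing dendritic cells, grown from bone marrow of 3 C57BL/6 mice with the dendritic cell growth factor Flt-3L and sorted as B220+ CD11c+ cells. All cultures were Gfi1f/f; Gfi1bf/f; ERCre, that is, they carried floxed alleles of the repressor genes *Gfi1* and *Gfi1b* and a Cre recombinase that tamoxifen activates. The bone marrow of each mouse was divided between a culture with 1 µM tamoxifen (KO) and a culture left untreated (WT), which gave 3 KO and 3 WT samples, each hybridised to 1 Affymetrix Mouse Gene 1.0 ST array. No vehicle control and no tamoxifen culture without floxed alleles were analysed here, so the drug, the Cre and the deletion cannot be told apart, and the study's genotyping PCR found the deletion inefficient. The sources used here give no age for the mice.

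ATF4 is made mainly through translation. When amino acids are scarce or the endoplasmic reticulum is stressed, kinases phosphorylate the initiation factor eIF2alpha, general translation slows, and *Atf4* mRNA is translated more. ATF4 then pairs with C/EBP proteins on C/EBP-ATF response elements and turns on genes for amino acid synthesis, amino acid uptake, tRNA charging and the stress response, so the mRNA levels of its targets are used as a readout of the pathway.

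The response element has the letters TGATGNAAN, which were searched on both strands of promoter windows of 300 bases, 250 before and 50 after each annotated start (RefSeq, mouse build GRCm38.p6). Of the 42 genes, 33 had a window, and 12 of these (36.4%) held the letters, against 4.50% of all 27025 genes in the table. Of the 12, 10 were measured, and their median log2 difference, KO minus WT, was -0.33, against -0.11 for the 21 measured members that had a window and no match. Within mice 1, 2 and 3 the medians were 0.13, -0.36 and -0.53 with a match, and 0.10, -0.25 and -0.13 without. Since the list was taken from known ATF4 targets, its larger share of matches is no finding about these data. *Trib3*, *Slc7a11* and *Slc1a4*, which have a match, had mean intensities at or under a background of 62.2. An element outside the window would be missed, and the part of the element in the differences was not tested. The stretches are shown for members with larger mean differences (*Asns*, *Nupr1*, *Vldlr*, *Slc7a11* and *Gars*) and for a pair with a mean near 0 (*Atf3* and *Chac1*). For *Atf3* the mean hides differences of 0.94, -0.29 and -0.53 within mice 1, 2 and 3 (standard error 1.36), so it is not a gene of even level. Each runs 5′ to 3′ on the strand of the gene, with the response element letters, or their reverse complement, in capitals, and a match is a description of the sequence and not a bound site.
Asns, chr6:7693210-7693272, minus strand: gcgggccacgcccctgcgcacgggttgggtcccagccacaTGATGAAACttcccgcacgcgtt
Nupr1, chr7:126625533-126625621, minus strand: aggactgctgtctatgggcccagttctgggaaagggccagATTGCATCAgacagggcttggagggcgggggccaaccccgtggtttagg
Vldlr, chr19:27216779-27216867, plus strand: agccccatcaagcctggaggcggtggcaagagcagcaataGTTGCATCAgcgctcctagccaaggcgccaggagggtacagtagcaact
Slc7a11, chr3:50443614-50443719, minus strand: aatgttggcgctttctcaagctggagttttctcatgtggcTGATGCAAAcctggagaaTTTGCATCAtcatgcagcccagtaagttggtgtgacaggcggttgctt
Gars, chr6:55037930-55038000, plus strand: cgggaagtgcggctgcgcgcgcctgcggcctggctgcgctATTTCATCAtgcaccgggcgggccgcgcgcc
Atf3, chr1:191183396-191183484, minus strand: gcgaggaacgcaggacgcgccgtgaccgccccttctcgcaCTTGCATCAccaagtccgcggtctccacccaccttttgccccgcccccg
Chac1, chr2:119351008-119351096, plus strand: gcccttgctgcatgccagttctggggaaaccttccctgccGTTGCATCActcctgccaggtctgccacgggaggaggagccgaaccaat

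As a group, the members stood slightly lower in KO than in WT pDCs, with a median log2 difference of -0.17 (range -1.02 to 0.23), and the median was below 0 in mice 2 and 3 but not in mouse 1. The median over all 21640 probe sets tested was 0.03. By the mean, 32 members were lower and 8 higher in KO pDCs. Lower by the mean were also 9547 of all 21640 probe sets, and 7275 of the 12549 above a background intensity of 62.2, as most members were. Within mice 1, 2 and 3 the medians of the members were 0.06, -0.27 and -0.26, and 17, 33 and 31 of the 40 were lower in the KO culture. In the same mice 10850, 10291 and 9466 of the 21640 probe sets were lower, and 7176, 7777 and 6416 of the 12549 above background. No member passed the test over all probe sets, which none of the 21640 did (0%, smallest adjusted p = 0.69 from limma with Benjamini-Hochberg adjustment).

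**Figure D1:**
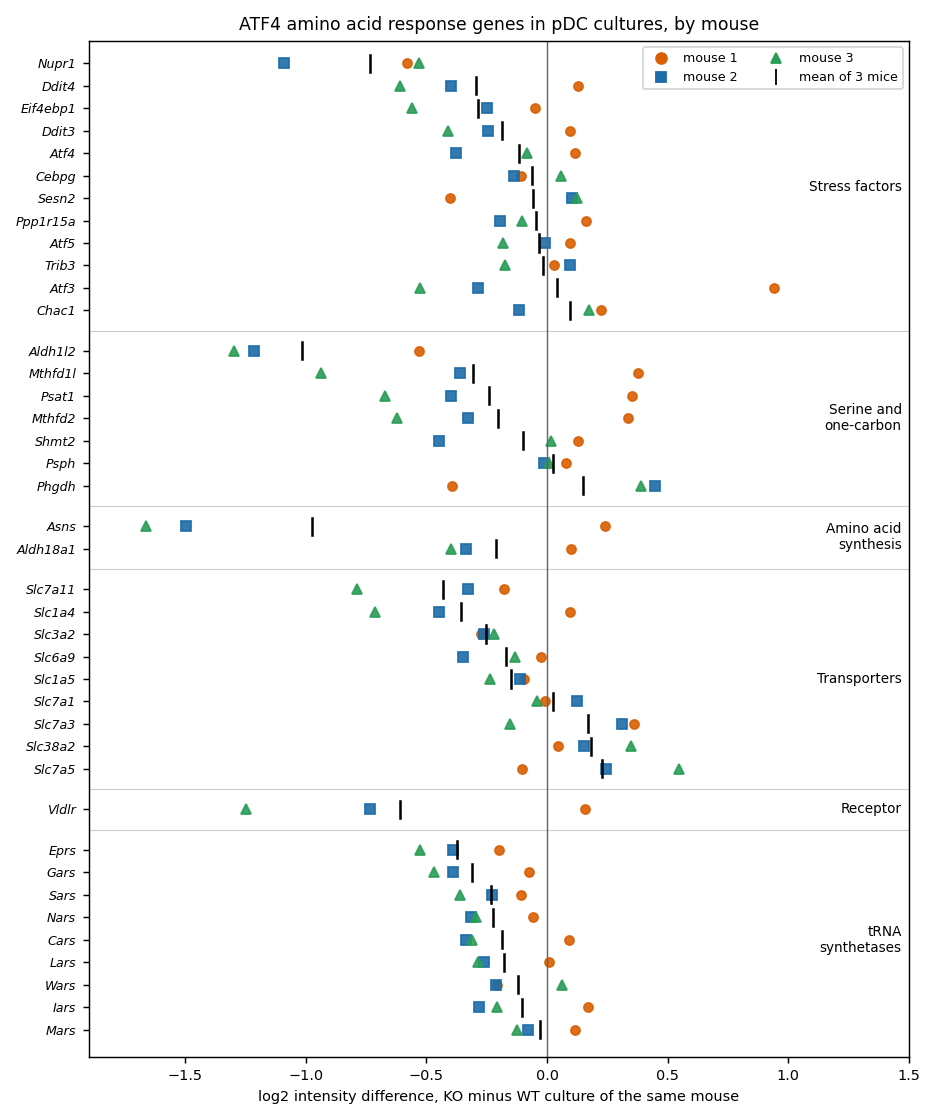
Log2 intensity difference, KO minus WT culture of the same mouse (horizontal axis), for the 40 measured members by role, with a symbol for each mouse and a bar at the mean of the 3 mice. The squares and triangles of mice 2 and 3 lie mostly left of 0, with 28 members lower in both, and 17 of these have the circle of mouse 1 right of 0.

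At an unadjusted p under 0.05, 2 members were lower (*Aldh1l2* and *Eprs*) and 0 were higher, against 1.90% and 5.14% of all probe sets. With the mouse as a block, 8 members were lower and 0 higher at that threshold, against 5.99% and 7.46% of all, and still no probe set passed the adjusted threshold (smallest adjusted p = 0.071). The 8 were *Nupr1*, *Asns*, *Aldh1l2*, *Slc7a11*, *Slc3a2*, *Vldlr*, *Gars* and *Eprs*. The same direction in all 3 mice was seen for 11 members that were lower in KO (17.4% of all probe sets and 26% of the 12549 above a background intensity of 62.2 were, the second share near that of the members) and for 1 that was higher (21.3%). All 3 KO arrays were below all 3 WT arrays for *Aldh1l2* and *Slc6a9* (4.65% of all probe sets, near the members' share) and above them for *Slc38a2* (10.2%, above the members' share). A mean difference of at least 2-fold was reached by *Aldh1l2*, which was lower, against 0.273% of all probe sets, but its probe set was not above background, and the log2 difference was -0.79 with an offset of 16 and -0.89, -0.84 and -0.82 without the KO array of mouse 1 and the WT arrays of mouse 2 and mouse 3, each under 2-fold.

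Mouse 1 stood apart from mice 2 and 3, in the members as over the whole array, where the first principal component (70.8% of the variance) set both of its arrays apart. In 17 members the KO culture was higher in mouse 1 and lower in mice 2 and 3, against 11.4% of all probe sets, and in 3 it was the reverse (*Phgdh*, *Sesn2* and *Slc7a5*), against 16.2%. In mice 2 and 3 together, 28 members were lower in both (28.9% of all probe sets, or 40.6% of those above background) and 4 were higher in both (37.5%). This background level is the 95th percentile of the mean intensities of 1208 olfactory and vomeronasal receptor probe sets, and *Trib3*, *Aldh1l2*, *Slc7a3*, *Slc7a11* and *Slc1a4* had means at or under it, where a fold is compressed. Most members were brighter than that, and among the probe sets above background the shares lower in KO were higher than over all. There 2.72% were lower at an unadjusted p under 0.05 (8.76% with the mouse as a block and 11.1% without mouse 1). KO arrays all below the WT arrays were found for 6.95%, and 14.6% were higher in mouse 1 and lower in mice 2 and 3. The shares higher in KO were smaller there than over all. Of the 12549 above background, 1776 were higher in all 3 mice and 3448 in both mice 2 and 3. Without overlap 699 were higher, and 337 were higher at an unadjusted p under 0.05 in the limma fit without the block.

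Without both arrays of mouse 1, the fit of 2 KO against 2 WT arrays put 15 members lower and 1 higher (*Phgdh*) at an unadjusted p under 0.05, against 7.79% and 9.77% of all probe sets. In that fit 2 members passed the adjusted threshold, *Asns* and *Aldh1l2*, both lower in KO, as did 0.49% of all probe sets in that direction. Of the measured markers of other cells listed below, 11 of 11 stromal, 4 of 8 neutrophil and 1 of 5 B cell markers passed it too, all lower in KO. Among macrophage markers 0 of 8 passed, and among pDC markers 0 of 9. *Asns* and *Aldh1l2* are on the study's own list of changed genes, which was chosen on these arrays, so their direction here is not independent evidence. Without mouse 2 or without mouse 3, no probe set passed.

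Markers of other cells differed between the same arrays. The summed intensity of 11 of 12 listed stromal (fibroblast) markers was 842, 3905 and 4025 in the KO arrays of mice 1, 2 and 3, against 923, 11139 and 11795 in the WT arrays. That of 8 neutrophil markers was 490, 2312 and 4197 in KO, against 1299, 8280 and 9494 in WT, of which *S100a8* and *S100a9* made up 32.3% to 79.6%. Unlike the sum, *Mpo* and *Elane* of that list were higher in KO in mice 1 and 3 (mean log2 differences 0.44 and 0.12). The sum of 8 of 9 macrophage markers ran from 4448 to 18587 in KO and from 4960 to 21107 in WT. These sums were low in both arrays of mouse 1, and in mice 2 and 3 the stromal and neutrophil sums were lower in KO than in WT, as most members were. In mouse 1 the neutrophil, stromal and macrophage sums were also lower in KO (-1.41, -0.13 and -0.16 on the log2 scale), where the member median was not. By single genes these lists were mixed in mouse 1, with 5 of 8 neutrophil, 6 of 11 stromal and 5 of 8 macrophage markers lower in KO. Higher in mouse 1 and lower in mice 2 and 3, as 17 members were, were 1 neutrophil, 5 stromal and 3 macrophage markers. The 5 measured B cell markers of 6 summed to 986, 2701 and 3010 in KO, against 765, 4263 and 3947 in WT, differences of 0.37, -0.66 and -0.39 with the signs of the member medians. The 9 measured of 10 pDC markers, all above background, summed to 35578, 26012 and 23703 in KO, against 37820, 19853 and 15670 in WT, so pDC markers were high in all arrays, and their sum was higher in KO in mice 2 and 3. By their means over the 6 arrays no marker of these 5 lists was at background, but in mouse 1 alone 7 stromal, 5 neutrophil and 2 B cell markers were in the KO array and 5, 3 and 1 in the WT array. Of 3 measured T cell markers 1 was at background by its mean, and of 4 NK cell markers 3 were. Their sums were higher in KO in every mouse, by 0.23, 0.06 and 0.22 for T cells and by 0.43, 0.20 and 0.78 for NK cells. *Nkg7*, a granule protein of NK and T cells, was the NK marker above background. It had a log2 difference of 0.77 (limma, unadjusted p = 0.043, adjusted p = 0.70). Its groups did not overlap, which held for 10.2% of all probe sets with KO higher. In the KO array of mouse 3 it made up 159 of the NK sum of 253. *Gzma*, another NK marker, had a mean of -0.10, with -0.60 in mouse 3, and 3 of the 4 NK markers were higher by the mean. In sorted bulk samples fewer cells of a type and less RNA per cell cannot be told apart, and the part of these other cells in the members' differences was not tested.

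**Figure D2:**
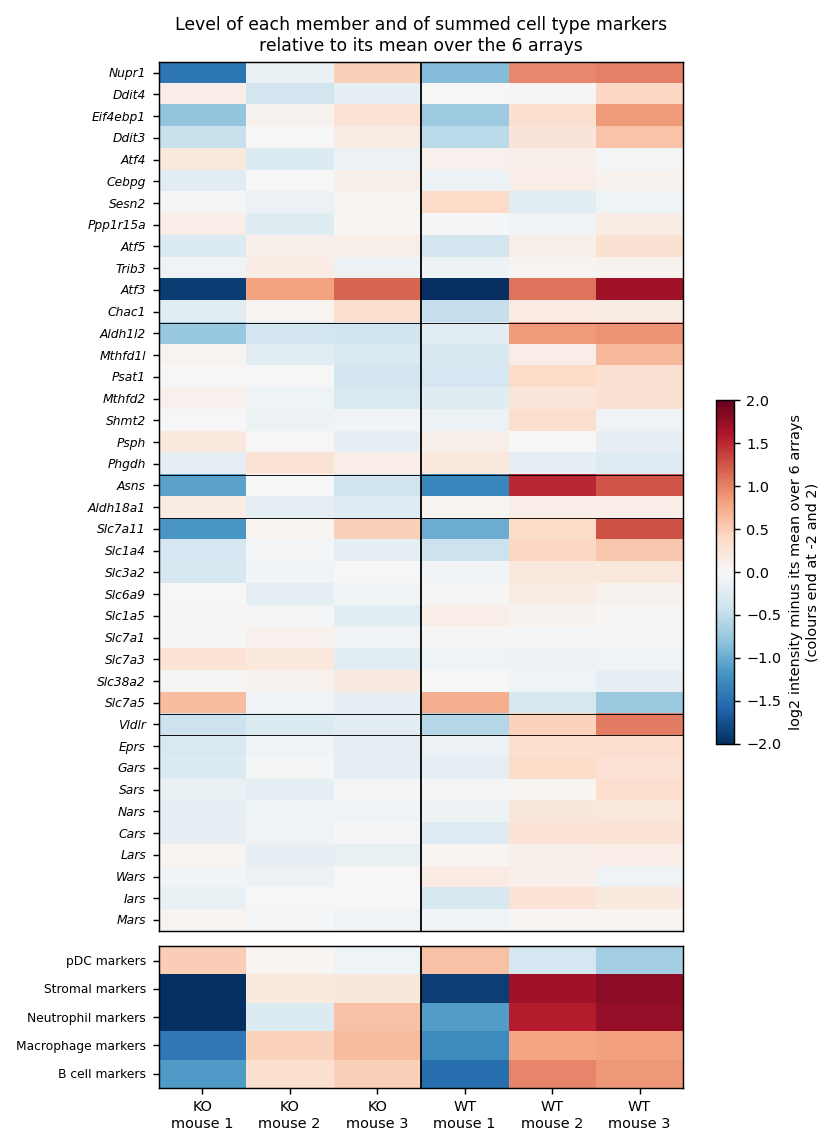
Each measured member (upper block, by role) and each summed marker list (lower block) in the 3 KO and 3 WT arrays, as log2 intensity minus its own mean over the 6 arrays, with colours from blue (lower) to red (higher) that end at -2 and 2. *Asns*, *Aldh1l2*, *Nupr1*, *Vldlr* and most synthetases are reddest in the WT arrays of mice 2 and 3, where the stromal and neutrophil sums are reddest too, and *Slc7a5* is reddest in both arrays of mouse 1, as the pDC sum is.

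The arrays did not show the deletion, and KO and WT are used here as the labels give them. *Gfi1* had intensities of 60.5, 67.1 and 61.9 in KO and 56.1, 47.8 and 43.3 in WT arrays, and *Gfi1b* had 194, 279 and 259 in KO and 179, 161 and 155 in WT. Both were higher in KO in every mouse, against the direction of a deletion, with no overlap of the groups (log2 differences 0.37 and 0.55, unadjusted p = 0.021 and 0.012, adjusted p = 0.69 for both), and *Gfi1* was not above background by its mean. The single probe set of each gene pools probes along the transcript and does not measure the deleted exons alone, so neither value checks the deletion.

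*Atf4* mRNA itself was at a high level and differed little. Its intensities were 726, 521 and 582 in the KO arrays of mice 1, 2 and 3, against 669, 676 and 616 in the WT arrays. The KO culture was higher in mouse 1 and lower in mice 2 and 3, and the groups overlapped (log2 difference -0.11, standard error 0.14, adjusted p = 0.86). mRNA on an array says nothing of ATF4 protein, which is set mainly by translation.

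The other stress factors had a class median of -0.06 with *Atf4* included, and 10 of the 12 were lower by the mean. Within mice 1, 2 and 3 the class medians were 0.10, -0.22 and -0.18. *Nupr1*, a small chromatin-associated stress protein, had the lowest difference of the class. Its intensities were 64.4, 159 and 244 in KO arrays, against 96.1, 339 and 353 in WT arrays. KO was lower in every mouse, by log2 differences of -0.58, -1.09 and -0.53, but the mice differed more than the cultures did, with both arrays of mouse 1 lowest, so the groups overlapped (-0.73, standard error 0.67, adjusted p = 0.81, and with the mouse as a block standard error 0.14, unadjusted p = 0.0013, adjusted p = 0.29).

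*Ddit4*, an inhibitor of the growth kinase complex mTORC1, had intensities of 225, 159 and 180 in KO and 206, 209 and 274 in WT arrays (log2 difference -0.29, standard error 0.18, adjusted p = 0.74). *Eif4ebp1*, which holds back cap-dependent translation, had 129, 233 and 271 in KO and 134, 276 and 399 in WT arrays (-0.29, standard error 0.46, adjusted p = 0.90). *Ddit4* was lower in KO in mice 2 and 3 only, and *Eif4ebp1* in all 3 mice with overlap of the groups. *Atf3*, a stress-induced partner of ATF4, varied most by mouse of the class, with 158, 1026 and 1320 in KO and 82.4, 1251 and 1901 in WT arrays. Both arrays of mouse 1 were far below the other 4, and the within-mouse differences of 0.94, -0.29 and -0.53 had unlike signs, with a mean of 0.04.

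*Ddit3*, which encodes the stress factor CHOP, had a mean log2 difference of -0.19, and *Cebpg*, a C/EBP protein that pairs with ATF4, had -0.06. *Sesn2*, a leucine-sensing inhibitor of mTORC1, had -0.06, *Ppp1r15a*, which brings a phosphatase to eIF2alpha and so ends the response, -0.05, and *Atf5*, a factor related to ATF4, -0.03. *Trib3*, a pseudokinase that feeds back on ATF4, had -0.02 at background level, and *Chac1*, a glutathione-degrading enzyme, 0.09. None of these 7 had an unadjusted p under 0.05 with or without the block, although *Ddit3* was lower by 0.25 and 0.41 in mice 2 and 3. The annotated ends of *Ddit3* and *Mars*, another member, overlap on chromosome 10.

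The serine and one-carbon enzymes had a median of -0.20 over 7 genes, with 5 lower by the mean, and of 0.13, -0.36 and -0.62 within mice 1, 2 and 3. *Aldh1l2*, which oxidises a folate intermediate in mitochondria, had a mean difference close to that of *Asns*, and these were the 2 lowest of all members. Their order turned with the offset, with array weights, without both arrays or only the WT array of mouse 1, and without the KO culture of mouse 2. Its intensities were 30.5, 40.4 and 39.3 in KO arrays, against 44.2, 93.6 and 96.7 in WT arrays. Every KO array was below every WT array (exact two-sided permutation test, p = 0.1, the smallest that 3 arrays against 3 allow), but all KO values and the WT value of mouse 1 lay under the background level (log2 difference -1.02, standard error 0.32, unadjusted p = 0.018, adjusted p = 0.69). Without mouse 1 it was lower in KO by a log2 difference of -1.26 (adjusted p = 0.014), in 2 of 2 mice.

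*Mthfd1l* and *Mthfd2*, which carry the mitochondrial folate units onward, and *Psat1*, the aminotransferase of serine synthesis, shared a pattern. *Mthfd1l* had intensities of 145, 119 and 115 in KO and 111, 153 and 219 in WT arrays (log2 difference -0.31, standard error 0.25, adjusted p = 0.79). *Mthfd2* had 171, 151 and 129 in KO and 135, 189 and 199 in WT arrays (-0.20, standard error 0.18, adjusted p = 0.81). *Psat1* had 158, 158 and 122 in KO and 124, 208 and 194 in WT arrays (-0.24, standard error 0.23, adjusted p = 0.82). In each, KO was higher than WT in mouse 1, by 0.38, 0.33 and 0.35, and lower in mice 2 and 3, and the WT array of mouse 1 was below both other WT arrays.

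The enzymes before and after *Psat1* in serine synthesis did not share that pattern. *Phgdh*, the first enzyme, had 93.6, 130 and 117 in KO and 123, 95 and 89.2 in WT arrays, lower in KO in mouse 1 and higher in mice 2 and 3 (log2 difference 0.15), the mirror image of *Psat1*. *Psph*, the phosphatase of the last step, had a log2 difference of 0.02 and lay within 0.08 of 0 in every mouse. *Shmt2*, which turns serine into glycine in mitochondria, had a mean of -0.10, from 0.13, -0.45 and 0.02 within mice 1, 2 and 3.

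Both measured enzymes of the amino acid synthesis class were higher in KO in mouse 1 and lower in mice 2 and 3. *Asns*, asparagine synthetase, one of the best known targets of ATF4, had intensities of 33.3, 69.9 and 52.6 in KO arrays, against 28.2, 197 and 166 in WT arrays. The WT arrays of mice 2 and 3 were high and the other 4 arrays low, with both arrays of mouse 1 and the KO array of mouse 3 under background, so the groups overlapped (log2 difference -0.97, standard error 0.76, adjusted p = 0.79, and unadjusted p = 0.029 with the block, adjusted p = 0.34). Within mice 1, 2 and 3 the differences were 0.24, -1.50 and -1.66, and without mouse 1 *Asns* was lower in KO (-1.58, standard error 0.17, adjusted p = 0.022, in 2 of 2 mice). In those mice the stromal marker sum differed by -1.51 and -1.55 between KO and WT. In mouse 1, where *Asns* was higher in KO, it differed by -0.13. By single genes, 5 of the 11 stromal markers were, as *Asns* was, higher in KO in mouse 1 and lower in mice 2 and 3. Among these, *Col5a2* had 0.24, -1.60 and -1.51 and *Col3a1* 0.29, -1.29 and -1.64. The other 6 were lower in all 3 mice, and 7 of the 11 were at background in the KO array of mouse 1. The part of stromal cells in the *Asns* difference was not tested. *Aldh18a1*, the first enzyme of proline synthesis, had 192, 152 and 145 in KO and 180, 192 and 191 in WT arrays (-0.21, standard error 0.13, adjusted p = 0.74).

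**Figure D3:**
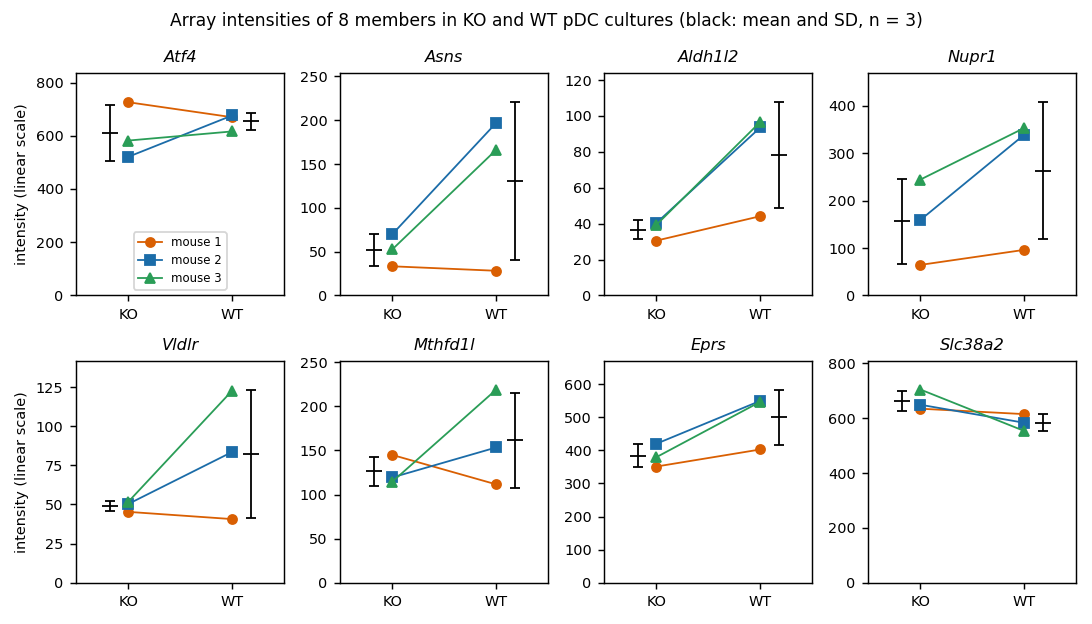
Array intensity on a linear scale (vertical axis from 0) of 8 members in the KO and WT cultures, with a line joining the 2 cultures of each mouse and black bars for the mean and SD of the 3 arrays. *Asns* and *Vldlr* are high only in the WT cultures of mice 2 and 3, *Nupr1* is lower in KO in every mouse, and *Slc38a2* is the 1 gene shown whose KO values all lie above the WT values.

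*Vldlr*, the very low density lipoprotein receptor and the 1 member outside amino acid metabolism and the stress factors, followed *Asns*. Its intensities were 45.3, 50.3 and 51.7 in KO arrays, against 40.7, 83.6 and 123 in WT arrays. The 3 KO arrays lay close together at background level and the WT arrays spread, with mouse 1 at the bottom (log2 difference -0.61, standard error 0.38, adjusted p = 0.75). The within-mouse differences were 0.16, -0.73 and -1.25.

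The 9 amino acid transporters did not move as 1 group. By the mean, 5 were lower and 4 higher, with a median of -0.15, and of -0.02, -0.11 and -0.15 within mice 1, 2 and 3. *Slc3a2*, the heavy chain that carries several light-chain transporters to the membrane, was the most even across mice. It had 747, 904 and 932 in KO and 904, 1083 and 1085 in WT arrays, a difference of -0.27, -0.26 and -0.22 within mice (mean -0.25, standard error 0.13, adjusted p = 0.72, and unadjusted p = 0.035 with the block, adjusted p = 0.35). KO was lower in every mouse, and the groups overlapped only because the KO arrays of mice 2 and 3 reached the level of the WT array of mouse 1.

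The light chains that pair with it went different ways. *Slc7a11*, the cystine importer, had 21.4, 49.2 and 67.2 in KO and 24.3, 61.7 and 116 in WT arrays, lower in KO in every mouse but near background (log2 difference -0.43, standard error 0.65). *Slc7a5*, the importer of large neutral amino acids, had 1232, 765 and 699 in KO and 1323, 645 and 478 in WT arrays (0.23, standard error 0.41). *Slc7a5* was higher in KO in mice 2 and 3 and, unlike most members, highest in both arrays of mouse 1, where the pDC marker sum was also highest.

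*Slc38a2*, an importer of small neutral amino acids that amino acid starvation is known to induce, was the only member higher in KO in all 3 mice, though in mouse 1 only by 0.05, and with each array centred on its median it was no longer higher there. It had 635, 649 and 704 in KO and 615, 583 and 553 in WT arrays, and the groups did not overlap (log2 difference 0.18, standard error 0.09, adjusted p = 0.72). *Slc6a9*, a glycine importer, had 98.6, 86.3 and 95.1 in KO and 100.3, 110 and 104 in WT arrays, also without overlap but with KO lower (-0.17, standard error 0.10, adjusted p = 0.73). Both differences were small, and the permutation test cannot go under p = 0.1 for either.

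*Slc1a5*, the main glutamine importer, had 403, 385 and 341 in KO and 431, 416 and 401 in WT arrays, lower in KO in every mouse with a slight overlap (log2 difference -0.15, standard error 0.10, adjusted p = 0.76). *Slc1a4*, a related carrier of alanine and serine, had 44.3, 54.7 and 49.5 in KO and 41.5, 74.7 and 81.2 in WT arrays (-0.36), the pattern of *Asns* at background level. The arginine and lysine carriers *Slc7a1* and *Slc7a3* had 0.02 and 0.17, the second at background level.

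The tRNA synthetases, which charge tRNAs with their amino acids, were the most uniform class. All 9 measured members were lower in KO by the mean, with a median of -0.19 (range -0.37 to -0.03), and of -0.06, -0.28 and -0.29 within mice 1, 2 and 3. *Eprs*, which charges glutamate and proline tRNAs, had 351, 420 and 379 in KO arrays, against 403, 550 and 547 in WT arrays. It was lower in KO in every mouse, and the KO array of mouse 2 stood just above the WT array of mouse 1 (log2 difference -0.37, standard error 0.15, unadjusted p = 0.050, adjusted p = 0.70, and adjusted p = 0.31 with the block).

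*Nars*, for asparagine, had 998, 1055 and 1059 in KO and 1038, 1313 and 1299 in WT arrays (log2 difference -0.22, standard error 0.12, adjusted p = 0.73). *Sars*, for serine, had 596, 572 and 646 in KO and 643, 670 and 828 in WT arrays (-0.23, standard error 0.13, adjusted p = 0.73). *Lars*, for leucine, had 448, 390 and 391 in KO and 445, 468 and 476 in WT arrays (-0.18, standard error 0.10, adjusted p = 0.73). *Nars* and *Sars* were lower in KO in every mouse, and *Lars* was level in mouse 1, by 0.01, and lower in mice 2 and 3.

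*Gars*, for glycine, had 283, 336 and 301 in KO and 298, 439 and 416 in WT arrays and was lower in every mouse (log2 difference -0.31, with unadjusted p = 0.033 with the block). *Cars*, for cysteine, had -0.19, *Wars*, for tryptophan, -0.12, and *Mars*, for methionine, -0.03. *Iars*, for isoleucine, had a pair of probe sets, the brighter at -0.11 and the other at -0.22, of the same direction. In 8 of the 9 synthetases the WT array of mouse 1 was below both other WT arrays, which held for 29 of all 40 members, for 31.7% of all probe sets and for 35% of those above background. The KO array of mouse 1 was below both other KO arrays in 20 of the 40 members, against 7424 of the 21640 probe sets.

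Related genes were set beside the members by lists of their own. The cytosolic synthetases that are no members were all lower in KO too, 9 of 9 by the mean, with a median of -0.11, and of -0.09, -0.20 and -0.13 within mice 1, 2 and 3. Among them *Rars*, for arginine, had -0.30 and *Tars*, for threonine, -0.25. *Hars*, for histidine, and *Qars*, for glutamine, had KO arrays all below the WT arrays. That held for 4.65% of all probe sets and for 6.95% of those above background. The mitochondrial synthetases had 8 lower and 8 higher of 16, with a median of -0.03. In the limma fits of all arrays, with or without the block, neither list held a gene with an unadjusted p under 0.05. Without mouse 1, *Rars* and *Tars* were lower at that threshold (unadjusted p = 0.022 and 0.038, adjusted p = 0.22 and 0.26), against 7.79% of all probe sets, and 0 mitochondrial synthetases were.

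The kinases that phosphorylate eIF2alpha and the phosphatase partner *Ppp1r15b* (5 measured of 6 listed) had a median of -0.15. All 5 were lower by the mean, as 7275 of the 12549 probe sets above background were. In every mouse 4 were lower, against 17.4% of all probe sets and 26% of those above background. *Eif2ak4*, which encodes the amino acid sensor GCN2, had -0.18 and *Eif2ak3*, which encodes the endoplasmic reticulum sensor PERK, -0.10. The folate enzymes that are no members, mostly cytosolic, had a median of -0.04 over 8 genes, against -0.20 for the serine and one-carbon members. Targets of XBP1 and ATF6, the other arms of the endoplasmic reticulum stress response, had a median of -0.07 over 8 genes, with *Hspa5*, the main chaperone of that compartment, at -0.07. *Herpud1*, which helps to degrade proteins of that compartment, went against the median at 0.41, with differences of -0.02, 0.48 and 0.78 within mice 1, 2 and 3 (unadjusted p = 0.039 with the block and 0.020 without mouse 1, adjusted p = 0.35 and 0.21). In the fit of all arrays without the block, none of the genes of these 3 lists had an unadjusted p under 0.05, and no list was tested as a whole. Over the 12549 probe sets above background the median was -0.03, and -0.03, -0.07 and -0.01 within mice 1, 2 and 3.

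**Figure D4:**
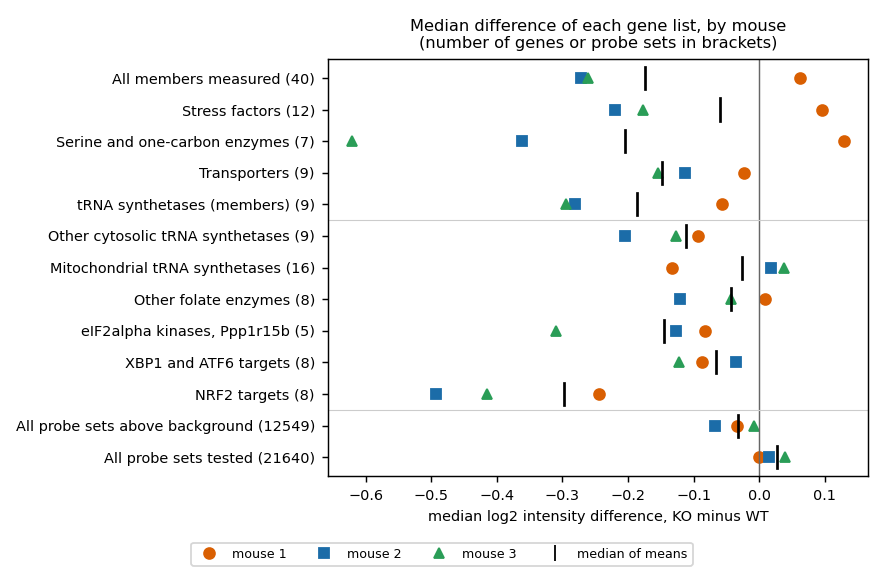
Median log2 intensity difference, KO minus WT (horizontal axis), of the members and their roles (top), related gene lists (middle) and all probe sets (bottom), with a symbol for each mouse and a bar for the median of the genes' means. In the serine and one-carbon enzymes the medians of mice 1, 2 and 3 lie at 0.13, -0.36 and -0.62, while over all probe sets the 3 mice lie within 0.04 of 0.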

How the data were processed

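RNA (200 ng per sample) of sorted pDCs from 3 mice, with 1 KO and 1 WT culture each, was hybridised to 6 Affymetrix Mouse Gene 1.0 ST arrays. The authors deposited linear intensities for 34760 probe sets (3.07 to 19106), already alike in distribution between arrays (medians 69.0 to 72.9), and the sources used here do not say how background, normalization and probe set summary were handled. Precision is limited by the number of arrays and, in a fit without the mouse as block, by differences between mice.

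Log2 values were taken without further normalization. By the platform table, 21640 probe sets carry exactly 1 symbol, 1321 carry several and 11799 none. All 21640 entered a limma fit (version 3.58.1, R 4.3.3; lmFit, then eBayes) of KO against WT without a filter on dim probe sets. Its two-sided p-values were adjusted over the 21640 by Benjamini-Hochberg, with a threshold of 0.05. The step was run on simulated data with planted differences and independent noise in each array. That run had no effect shared by the arrays of a mouse, so it does not cover the structure of these data. Differences are KO minus WT log2 means. The labels name the same mouse for 1 KO and 1 WT array and so pair them. After the group means were taken off, KO and WT arrays of mice 1, 2 and 3 correlated at 0.81, 0.51 and 0.67 over all probe sets, and a fit with mouse as block served as an alternative, since the study's methods name no paired model for the arrays. Further alternatives were other normalizations, an offset of 16, filters, other choices of probe sets, a trended and robust prior, array weights, and each array or mouse left out.

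Members, lists, roles and tests were chosen with earlier results of these data known. Full values were given to *Atf4*, to *Aldh1l2* and *Asns*, which the study lists as changed, and to the 4 members of each role with the smallest p (2 for amino acid synthesis), and other members were named by their differences. Intensities of *Atf3*, *Phgdh*, *Slc7a11*, *Slc7a5*, *Slc1a4* and *Gars* were also printed, chosen after their values were seen. All 40 measured members matched RefSeq by gene ID.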

Additional observations from a re-analysis of the deposited data

How the results depend on the processing

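With the mouse as a replicate block (pairing by mouse), 8 members were at an unadjusted p under 0.05 in place of 2, of 2911 probe sets in place of 1525, and no adjusted call changed. Array weights gave 17 members of 4735 probe sets, every probe set in the fit gave 1 of 2330, and a trended and robust prior gave 1 of 1516. Leaving out probe sets below the median level, which removed *Asns*, *Aldh1l2* and *Vldlr* among 8 members, gave 0 of 500 and a transporter median of -0.062. Members higher in KO in all 3 mice numbered 2 after a further quantile normalization and 0 after centring arrays on their medians, against 1. With 1 array or 1 mouse left out, members at an unadjusted p under 0.05 ranged from 0 to 16. There were 16 without mouse 1 and 14 without the WT array of mouse 1. There was 1 without the KO array of mouse 2 (of 952 probe sets) or without mouse 3, and 0 without mouse 2 or the WT array of mouse 2 or 3. Probe sets at that threshold ranged from 331 (without mouse 2) to 3801 (without mouse 1), and those past the adjusted threshold from 0 to 108 (without mouse 1). The 14 are given without a share over all probe sets and are not read as a result about the members. With 1 mouse left out, 12 to 28 members were lower in both remaining mice and 3 to 4 were higher. For mice 2 and 3, with 28 lower and 4 higher, the shares of all probe sets were 28.9% and 37.5% (40.6% lower above background). For the other pairs no such share was taken, so their counts are not read as a result about the members. Over the fits with 1 array or 1 mouse left out, the median ranged from -0.27 to -0.11 for all members and from -0.19 to 0.02 for stress factors. It ranged from -0.47 to 0.0030 for serine and one-carbon enzymes, from -0.17 to -0.021 for transporters and from -0.30 to -0.14 for the synthetases. The stress factor median turned positive when the KO array of mouse 1 (0.0025) or the WT array of mouse 3 (0.015) was left out, and that of the serine and one-carbon enzymes without mouse 3. *Eif4ebp1* ranged from -0.72 to 0.065 and was positive when either of those 2 arrays was left out, *Atf4* from -0.25 to 0.017 (positive without mouse 2), *Mthfd2* from -0.47 to 0.0030 and *Mthfd1l* from -0.65 to 0.0081 (both positive without mouse 3). The cause was not tested. *Nupr1* ranged from -1.35 (without the WT array of mouse 1) to -0.20 (without the KO array of mouse 1), *Asns* from -1.87 to -0.46 (without the WT array of mouse 1 and of mouse 2), *Vldlr* from -1.05 to -0.25 (of mouse 1 and of mouse 3), *Psat1* from -0.53 (without mouse 1) to -0.02 (without mouse 3), *Ddit4* from -0.50 to -0.13 and *Aldh18a1* from -0.37 to -0.12 (each likewise). In the remaining alternatives the differences of single genes (367 values) kept their direction and their side of the adjusted threshold, though not their size, and 131 counts and medians stayed within 1.5 times or the spread.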

Other observations

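NRF2, the factor that answers oxidative stress, shares some targets with ATF4, among them *Slc7a11*. Its targets outside the members had a median log2 difference, KO minus WT, of -0.30 over 8 genes, and of -0.24, -0.49 and -0.41 within mice 1, 2 and 3. By the mean 7 were lower, as 7275 of the 12549 probe sets above background were. In every mouse 5 were lower, against 17.4% of all probe sets and 26% of those above background. *Gclc*, the catalytic subunit of the enzyme that starts glutathione synthesis, had intensities of 159, 133 and 126 in KO arrays, against 197, 200 and 211 in WT arrays. The groups did not overlap, which held for 4.65% of all probe sets with KO lower (log2 difference -0.55, standard error 0.12, unadjusted p = 0.0028, adjusted p = 0.69 from limma). *Gclm*, the other subunit, had 124, 207 and 303 in KO and 180, 334 and 439 in WT arrays (-0.59, adjusted p = 0.78), and *Hmox1*, heme oxygenase, had 207, 2920 and 3838 in KO and 375, 4968 and 6761 in WT arrays (-0.81, adjusted p = 0.91). Both were lower in KO in all 3 mice, and for *Hmox1* the mice spanned a far wider range than the cultures of 1 mouse did. With the mouse as a block 4 of the 8 had an unadjusted p under 0.05, all lower, against 5.99% of all probe sets, and none passed the adjusted threshold. The macrophage marker sum was 4448, 16569 and 18587 in KO and 4960, 20681 and 21107 in WT arrays, low in mouse 1 as *Hmox1* was, and its part in these differences was not tested.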
